A study of Homo sapiens with 66 samples.

Results

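The genes described here are the MHC class I presentation genes, picked by symbol under a rule that uses no measured value, with earlier results of these data known. They are 9 of the 57992 genes in the count files, and comprise the heavy chains HLA-B, HLA-C, HLA-E and HLA-F, the light chain B2M, the transporter genes TAP1 and TAP2, the tapasin gene TAPBP and the transactivator gene NLRC5. Their basal level and their change after etoposide were examined in 11 AML cell lines.

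Cells of 11 human acute myeloid leukemia (AML) lines were left untreated or exposed to etoposide for 24 hours. The lines are spelled here as in the sample labels (F36P, HL60, KASUMI1, MOLM13, MONOMAC6, MV411, NB4, NOMO1, OCIAML2, OCIAML3 and THP1). According to the study's supplement, serum and supplements differed between lines, and F36P alone received granulocyte-macrophage colony stimulating factor. Etoposide is a poison of topoisomerase II that leaves DNA double strand breaks. The concentration was the IC50 of each line, so the dose differed between lines, and line and dose cannot be told apart. Each of the 22 groups had 3 RNA-seq libraries, called biological replicates in the design text, each from cells of 3 pooled wells. A line is a single established culture, so its p-values measure the spread between cultures of that line. The 66 libraries held 17997404 to 24101670 counted reads (median 20241014). According to the study's methods, the etoposide-treated OCIAML2 libraries failed quality control of the raw reads. OCIAML2 was therefore used for the basal level and its response is given apart, so that "10 lines" below means the other lines.

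The myeloid genes CD33 and SPI1 were present in every untreated line, at 66.5 CPM (read counts scaled to a common library size) or more for CD33 and 107 CPM or more for SPI1. MPO and CEBPA were low in F36P (0.977 and 0.552 CPM) and reached 1 CPM or more in the other 10 lines. F36P instead held the highest level of the erythroid gene GATA1 (253 CPM). CD3D, a T cell gene, was at 156 CPM in NOMO1, and EPCAM, an epithelial gene, at 81.9 CPM in KASUMI1. The part of these differences in the results below was not tested. CDKN1A, a p53 target induced by DNA damage, rose after etoposide in all 10 lines, by 1.86 (MV411) to 5.46 (OCIAML3) on the log2 scale. In OCIAML2 CDKN1A rose by 0.73.

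MHC class I molecules display peptides from inside the cell to CD8 T cells. The proteasome cuts proteins into peptides, the TAP1 and TAP2 proteins together pump these into the endoplasmic reticulum, and tapasin holds empty heavy chain and B2M dimers next to the pump until a peptide is bound. HLA-B and HLA-C are classical heavy chains, while HLA-E presents leader peptides to the NK cell receptor NKG2A and HLA-F is a less abundant nonclassical chain. NLRC5 does not bind DNA itself. It is recruited to class I promoters by RFX, CREB/ATF and NF-Y proteins, which bind a shared proximal module, and further upstream lie sites for NF-kB and an interferon-stimulated response element (ISRE). Interferon acts through factors such as STAT2, IRF1 and IRF9 on these genes, and NLRC5 is itself induced by interferon gamma.

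The promoters of HLA-B, HLA-C, B2M, TAP1 and TAPBP are shown because the elements just named lie in such windows and because these members differed in how often they rose after etoposide. RefSeq entries on GRCh38.p14 matched 7 of the 9 members, with 8 start sites since TAP1 had 2. None was matched for HLA-E and NLRC5. Each sequence is the 250 bases before the start site, read 5' to 3' on the strand of the gene. Capitals mark matches, on either strand, to the CCAAT box (CCAAT), the core of the cyclic AMP response element (CRE, TGACG), the ISRE (GAAANNGAAA) or an NF-kB motif (GGGANNNNCC), and capitals run together where matches overlap or touch.
HLA-B, chr6:31357180-31357429, minus strand: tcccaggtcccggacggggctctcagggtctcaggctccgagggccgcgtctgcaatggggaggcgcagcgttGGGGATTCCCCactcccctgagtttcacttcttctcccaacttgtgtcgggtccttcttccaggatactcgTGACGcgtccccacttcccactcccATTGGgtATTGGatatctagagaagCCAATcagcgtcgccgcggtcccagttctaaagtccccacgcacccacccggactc
HLA-C, chr6:31272093-31272342, minus strand: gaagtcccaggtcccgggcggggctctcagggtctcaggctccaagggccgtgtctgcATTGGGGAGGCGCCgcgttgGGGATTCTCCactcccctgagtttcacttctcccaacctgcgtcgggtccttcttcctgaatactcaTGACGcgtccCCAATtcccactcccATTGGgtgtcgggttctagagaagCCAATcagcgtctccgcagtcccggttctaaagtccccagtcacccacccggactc
B2M, chr15:44711267-44711516, plus strand: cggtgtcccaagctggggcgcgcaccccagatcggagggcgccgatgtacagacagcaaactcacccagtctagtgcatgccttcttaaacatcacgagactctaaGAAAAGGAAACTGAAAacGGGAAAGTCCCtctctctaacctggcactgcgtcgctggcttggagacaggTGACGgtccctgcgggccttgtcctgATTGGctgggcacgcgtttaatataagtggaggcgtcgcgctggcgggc
TAP1, chr6:32853705-32853954, minus strand: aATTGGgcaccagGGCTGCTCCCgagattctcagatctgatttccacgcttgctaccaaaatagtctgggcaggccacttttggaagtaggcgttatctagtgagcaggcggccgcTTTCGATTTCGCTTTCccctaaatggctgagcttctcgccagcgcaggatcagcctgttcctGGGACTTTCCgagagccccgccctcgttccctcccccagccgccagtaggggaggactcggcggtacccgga
TAPBP, chr6:33314079-33314328, minus strand: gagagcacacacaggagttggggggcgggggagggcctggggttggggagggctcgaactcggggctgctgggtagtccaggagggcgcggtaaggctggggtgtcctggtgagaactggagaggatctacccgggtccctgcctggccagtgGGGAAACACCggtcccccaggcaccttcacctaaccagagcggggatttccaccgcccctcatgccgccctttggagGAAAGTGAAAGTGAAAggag
The CCAAT box was found in 5 of the 8 member promoters, against 32.0% of 35116 promoters of the same length, and the CRE core in 4, against 21.2%. The NF-kB letters were found in 5, against 22.6%. The ISRE letters were found in 5 (HLA-F, B2M, the first TAP1 start, TAP2 and TAPBP), against 3.0% of all promoters. No ISRE match to these letters was found in the HLA-B and HLA-C windows. The ISRE letters of TAPBP began 20 and 14 bases before its start, those of B2M 144 and 138 bases, and those of TAP1 134 and 128 bases. These matches are a description of the letters, not of bound sites.

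Basal levels are given as CPM normalized by the trimmed mean of M values (TMM) over the 33 untreated libraries, as mean ± SD (n = 3). Per kilobase of the canonical transcript, B2M had the highest median level over the 11 lines (305 CPM per kb), followed by HLA-B (37.8), HLA-E (17.6), NLRC5 (8.43), HLA-C (7.48), TAP1 (4.38), TAPBP (3.38) and HLA-F (0.127 CPM per kb). B2M thus exceeded each of its heavy chains in the median line. Every member that could be tested (8 of 8) differed between the 11 untreated lines by edgeR's quasi-likelihood F-test, with Benjamini-Hochberg adjusted p (FDR) between 6.71e-35 for HLA-C and 3.96e-15 for TAPBP. This test was passed by 99.4% of the 18130 genes tested, so it does not set the members apart. The plot of basal levels shows all libraries.

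**Figure D1:**
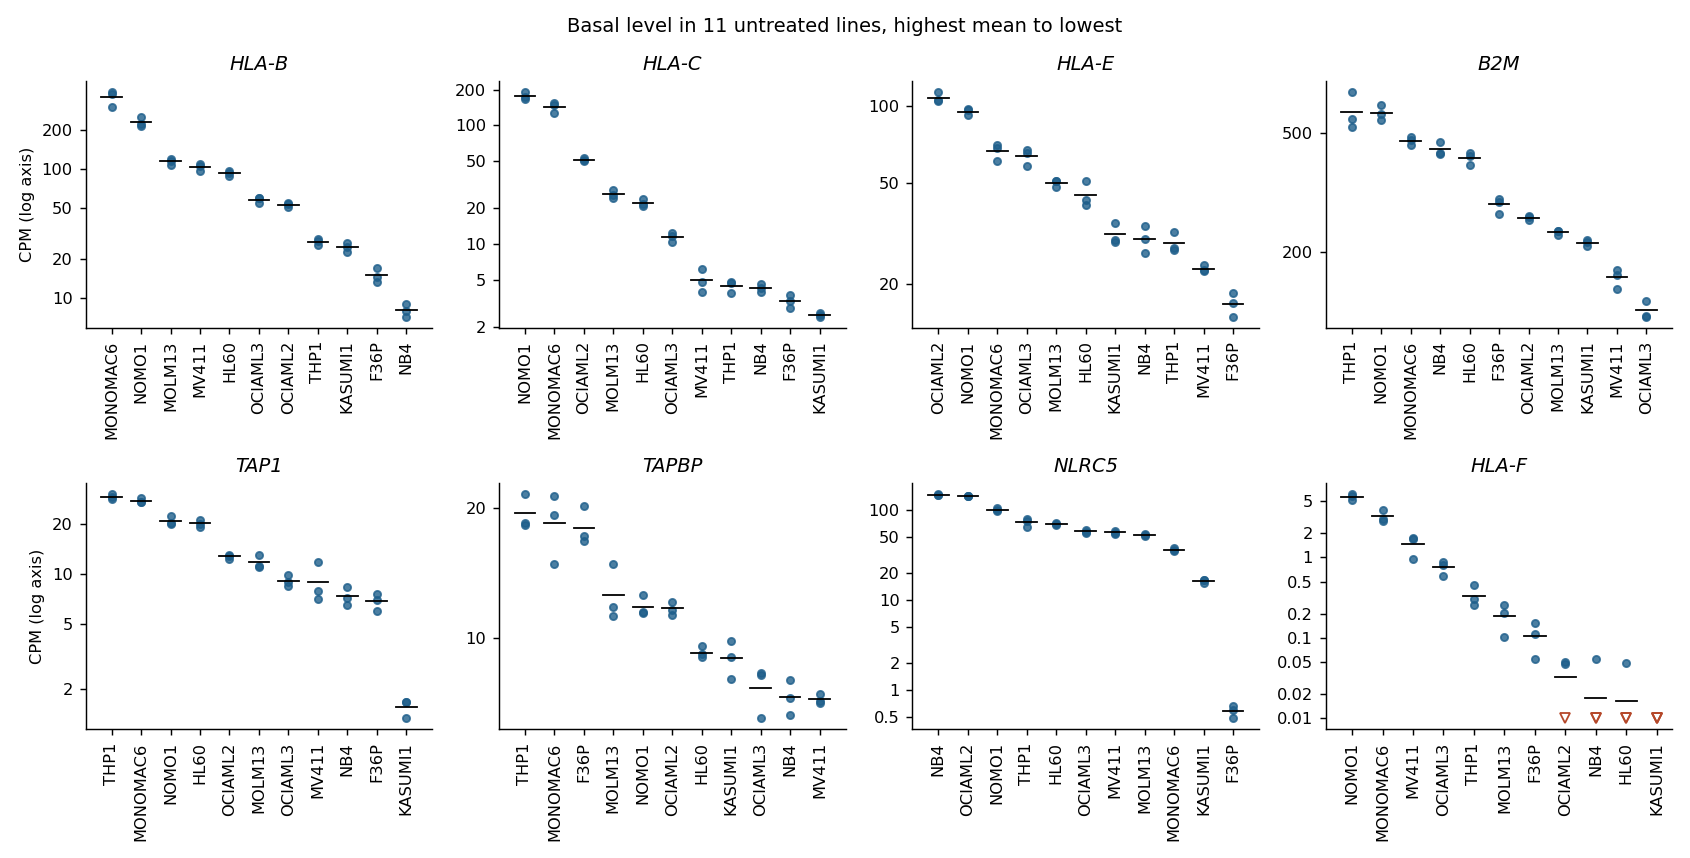
Basal level of 8 members in the 33 untreated libraries, in TMM-normalized CPM on a log axis, by cell line. Each point is a library, each black bar the mean of 3, and open red triangles mark HLA-F libraries with 0 reads, drawn at the foot of the axis. NLRC5 is lowest in F36P and HLA-F is at or near 0 in KASUMI1, HL60 and NB4, while B2M and TAPBP span the narrowest ranges.

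HLA-B was highest in MONOMAC6, where the 3 libraries were at 306, 396 and 385 CPM, and lowest in NB4, at 7.18, 9.07 and 7.95 CPM, a ratio of means of 44.9. NOMO1 followed MONOMAC6 at 232 ± 19.1 CPM. MOLM13 (115 ± 6.3), MV411 (104 ± 6.13) and HL60 (93.3 ± 4.05) formed a middle range in which MOLM13 and MV411 overlapped. The next lines were OCIAML3 (58.0 ± 2.85 CPM) and OCIAML2 (52.9 ± 1.87 CPM). THP1 (27.4 ± 1.68) and KASUMI1 (24.8 ± 2.0) overlapped with each other, and F36P was at 15 ± 1.81 CPM. All other neighbours in the order were separated by the ranges of their 3 libraries.

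HLA-C spanned 69.4-fold, from 168, 173 and 190 CPM in NOMO1 to 2.54, 2.46 and 2.66 CPM in KASUMI1. MONOMAC6 (143 ± 14.8 CPM) and OCIAML2 (51.4 ± 1.88 CPM) followed NOMO1. MOLM13 (26.3 ± 2.25), HL60 (22.3 ± 1.47) and OCIAML3 (11.5 ± 1.03 CPM) held the middle of the order. The next 3 lines, MV411 (5.00 ± 1.14), THP1 (4.45 ± 0.522) and NB4 (4.28 ± 0.344 CPM), overlapped each with the next, and F36P was at 3.31 ± 0.42 CPM. Reads of these genes were counted against a single reference sequence per gene although the alleles of class I genes vary between people and the genes resemble each other, and the effect of this on the levels of a line was not tested. For HLA-B, 32.7% of its exon bases (gencode 44) also lie in exons of DHFRP2 or MIR6891 on the same strand, to which 0 reads were assigned.

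The nonclassical chains were spread differently. HLA-E spanned only 6.41-fold, from 113, 104 and 105 CPM in OCIAML2 to 18.5, 16.8 and 14.9 CPM in F36P, and 4 of its 10 neighbour pairs overlapped. HLA-F was highest in NOMO1 (5.19, 5.79 and 6.16 CPM), followed by MONOMAC6 (3.24 ± 0.547), MV411 (1.46 ± 0.441) and OCIAML3 (0.755 ± 0.148 CPM). In KASUMI1 HLA-F had 0 reads in the 3 untreated libraries together, where 3 reads, the limit that a count of 0 allows, would equal 0.0495 CPM. NB4 and HL60 each had 1 read and OCIAML2 2 reads. Such limits cover counting error alone.

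B2M varied less than the classical heavy chains, by 4.64-fold between THP1 (558, 685 and 523 CPM) and OCIAML3 (121, 136 and 122 CPM). NOMO1, at 585 ± 34.6 CPM, overlapped with THP1. MONOMAC6 (471 ± 15.6), NB4 (441 ± 22.3) and HL60 (412 ± 19.2 CPM) formed a run in which each overlapped with the next. NB4, the line with the lowest HLA-B, was thus among the upper lines for B2M. The remaining lines lay in separate ranges from F36P (288 ± 17.3 CPM) through OCIAML2, MOLM13 and KASUMI1 to MV411 (164 ± 12.1 CPM).

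TAP1 was highest in THP1 (28.7, 30.6 and 29.2 CPM) and MONOMAC6 (27.5, 29.1 and 27.2 CPM), which overlapped, and lowest in KASUMI1 (1.67, 1.68 and 1.33 CPM), 18.9-fold below THP1. NOMO1 (21.0 ± 1.42) and HL60 (20.3 ± 1.01 CPM) also overlapped. From OCIAML3 (9.08 ± 0.71 CPM) through MV411 (8.90 ± 2.53), NB4 (7.32 ± 0.944) and F36P (6.83 ± 0.835 CPM) each line overlapped with the next. TAPBP was the least variable member, with 2.71-fold between THP1 (18.5, 18.3 and 21.6 CPM) and MV411 (7.4, 7.11 and 7.06 CPM), and 8 of its 10 neighbour pairs overlapped. TAP2 held 120 reads in all 66 libraries. MOLM13 accounted for 46 reads untreated and 32 after etoposide, NB4 for 16 and 22, and no other group held more than 2. Of the TAP2 exon bases, 19.5% are shared on the same strand with a read-through gene (ENSG00000250264), and whether this bears on the low count was not tested.

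NLRC5 had the widest range of the members with reads in every line, 248-fold between NB4 and F36P. In NB4 the libraries were at 144, 149 and 145 CPM and in OCIAML2 at 143, 142 and 142 CPM. F36P libraries held 0.669, 0.488 and 0.609 CPM, or 33 reads in all. KASUMI1 was the second lowest line at 16.1 ± 0.81 CPM, followed upward by MONOMAC6 (36.1 ± 1.5), MOLM13 (52.6 ± 1.47), MV411 (56.1 ± 1.99) and OCIAML3 (57.2 ± 2.63 CPM), of which MV411 and OCIAML3 overlapped. HL60 (69.6 ± 2.07) and THP1 (72.6 ± 7.19 CPM) overlapped, and NOMO1 was at 100 ± 3.59 CPM. The line order of NLRC5 was not that of the heavy chains: NB4 was highest for NLRC5 and lowest for HLA-B, and MONOMAC6, highest for HLA-B, was the third lowest for NLRC5.

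As a description over the 11 lines, whose values share libraries and normalization between genes, the Pearson correlation of log2 basal levels was positive for 26 of 28 pairs of members without TAP2, with a median of 0.40. It was 0.85 for HLA-C with HLA-E and 0.82 for HLA-B with HLA-C (Spearman 0.84). For NLRC5 it was 0.38 with HLA-C, 0.26 with HLA-B, 0.39 with TAP1, 0.19 with B2M and -0.40 with TAPBP. Among 12115 protein-coding genes whose mean reached 1 CPM or more, the basal pattern most like that of NLRC5 was found for LRFN4 (r = 0.957), PSTPIP1 (0.941) and HDAC5 (0.941). Without F36P these values were 0.792, 0.896 and 0.735. For TAP1 the most alike were PSMB9 (r = 0.924), PSMB8 (0.916) and PGGT1B (0.881). PSMB9 and PSMB8, which code for immunoproteasome subunits, are neighbours of TAP1 on chromosome 6, and TAP1 (6:32845209-32853816, minus strand, gencode 44) lies within the annotated span of PSMB9 (6:32844136-32859851, plus strand). The strand used in counting is not given in the sources used here, and of 366 genes wholly inside an opposite-strand exon of a well covered gene, 305 had reads.

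Etoposide libraries were compared with untreated libraries within each line by edgeR's quasi-likelihood test. FDR is the adjusted p of this test over all genes of the line, and a change is said to pass when FDR was below 0.05, with the 2-fold threshold of the study named where it was also met. Library values in this comparison are CPM with TMM over the 6 libraries of the line, so they differ slightly from the basal values. In bulk RNA a change per cell and a change in which cells survived cannot be told apart. Of the 9 members, 7 passed the filter on low counts in every line, HLA-F passed it in 4 of the 10 lines and TAP2 in 1, giving 75 tests. Of these tests 49 were rises (65.3%), against 27.7% of all 143149 gene tests in the 10 lines. Falls numbered 4 (5.33%), against 24.4%. The same genes are counted again in each line, so these tests are not separate members. For the 7 members tested in every line the numbers were 46 rises and 4 falls in 70 tests. The median log2 fold change was 0.41 for the members and 0.01 for all genes.

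Rises above 2-fold were fewer, 11 of 75 tests (14.7%), against 11.1% of all gene tests, and without F36P 7 of 68 (10.3%), against 9.41%. By line these rises numbered 4 of 7 members in F36P (against 24.3% of all genes of the line), 3 of 7 in KASUMI1 (14.6%), 2 of 8 in MOLM13 (8.59%), and 1 of 8 each in MONOMAC6 (8.53%) and OCIAML3 (7.18%). Pooled over the lines, the share of member tests by this threshold was near that of all gene tests. No member fell by more than 2-fold, with 0 also by the exact test of edgeR and by DESeq2, and the lowest member log2 fold change was -0.72, so that 0 reached this size at an unadjusted p below 0.05. Among all gene tests 3.96% fell by more than 2-fold. The plot of the share of members that rose sets each line beside its background.

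**Figure D2:**
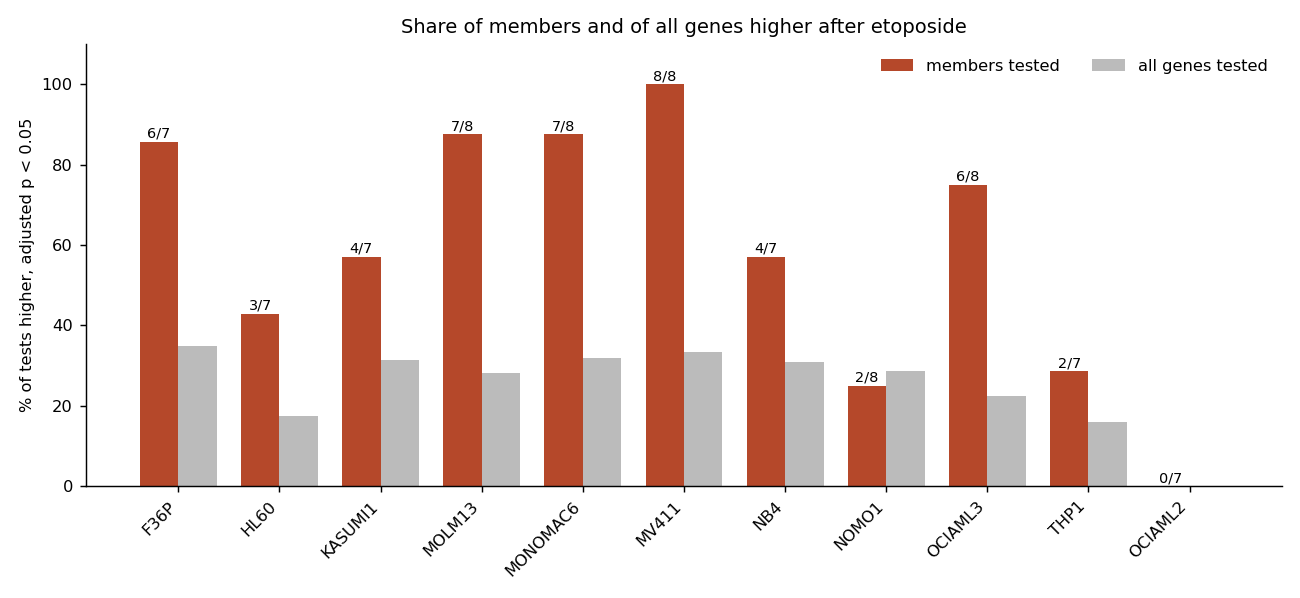
Share (percent) of tests that rose after etoposide at FDR below 0.05, by cell line, for the members tested and for all genes tested in that line, with the numbers of members on the bars. MV411 stands at 8 of 8 members, MOLM13 and MONOMAC6 at 7 of 8, and OCIAML2 at 0 of 7.

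By line, in MV411 8 of 8 members tested rose, against 33.5% of all genes of that line, in MOLM13 7 of 8 (28.1%), in MONOMAC6 7 of 8 (31.8%), in F36P 6 of 7 (35.0%) and in OCIAML3 6 of 8 (22.4%). KASUMI1 (31.5% of all genes) and NB4 (31.0%) had 4 of 7 each, and HL60 3 of 7 (17.5%). THP1 had 2 of 7 (16.1%) and NOMO1 2 of 8 (28.8%). In NB4 and NOMO1 a further 2 members fell, against 28.7% and 23.9% of all genes of these lines.

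**Figure D3:**
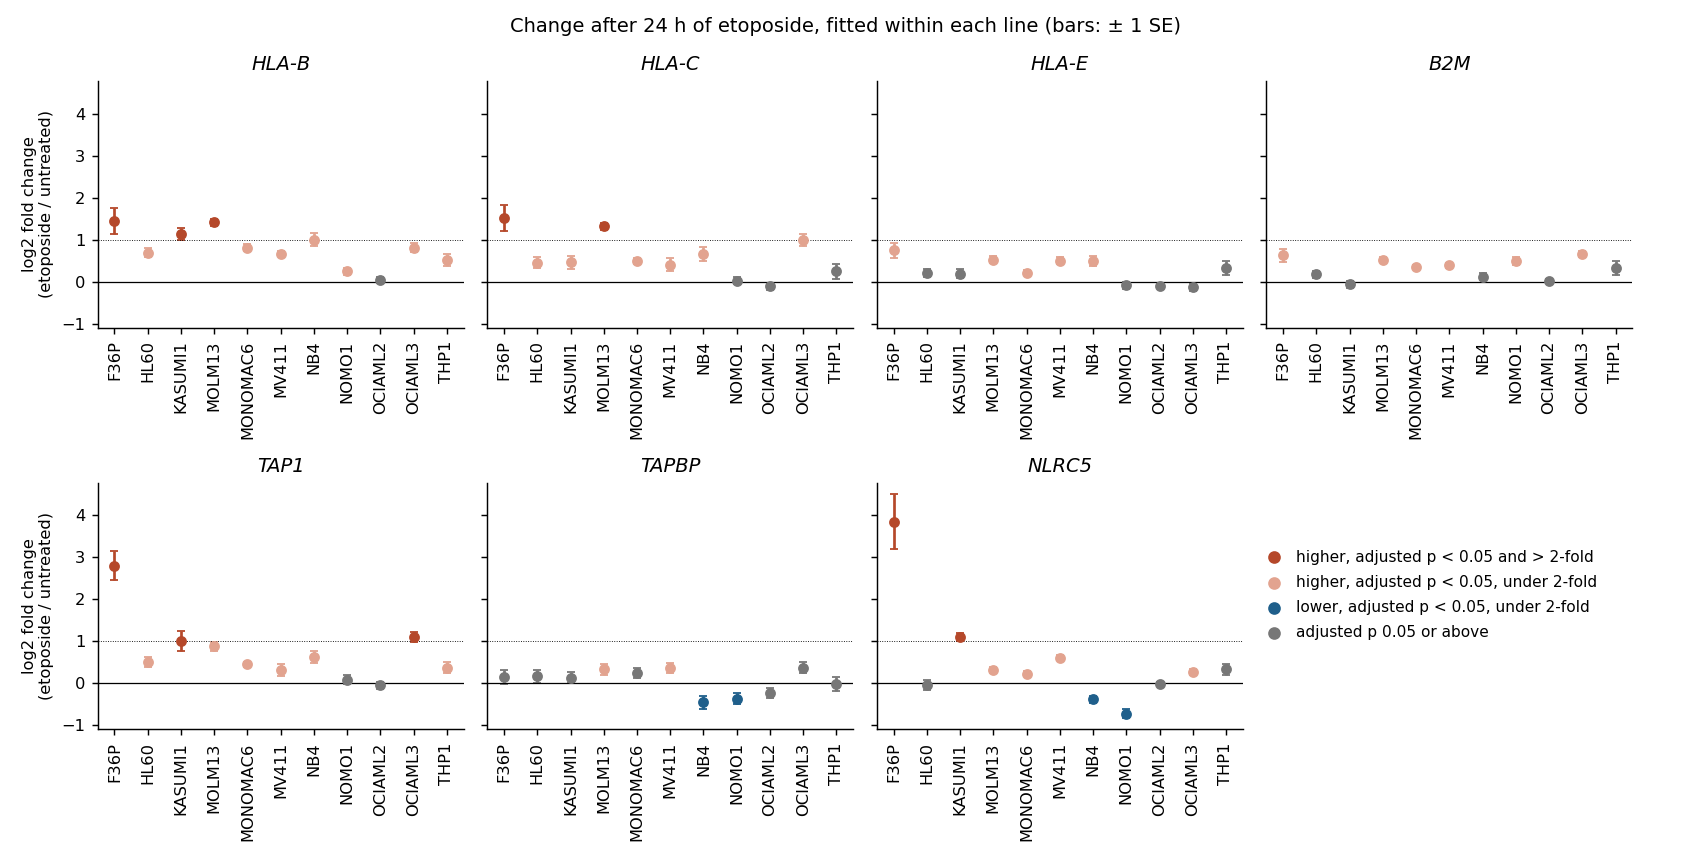
Log2 fold change of each member after etoposide by cell line, with bars of 1 SE from the edgeR fit. Dark red points rose above 2-fold at FDR below 0.05, light red points rose under 2-fold, blue points fell, grey points did not pass, and the dotted line marks 2-fold. F36P carries the highest values for TAP1 (2.80) and NLRC5 (3.85), and NOMO1 and NB4 carry the falls of NLRC5 and TAPBP.

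HLA-B rose in all 10 lines, and no other member did so in every line. In F36P the untreated libraries were at 17.2, 14.4 and 16.0 CPM and the etoposide libraries at 32.2, 27.5 and 69.3 CPM, a log2 fold change of 1.44 ± 0.306 (SE, FDR = 0.00228 by edgeR). The third etoposide library lay well above the others, and without it the change was 0.91, below 2-fold. In MOLM13 HLA-B went from 110, 116 and 104 CPM to 268, 311 and 300 CPM, a change of 1.42 ± 0.078 (edgeR FDR = 9.73e-07). In KASUMI1 it went from 22.7, 25.2 and 26.3 CPM to 45.4, 65.1 and 52.0 CPM, a change of 1.13 ± 0.135 (edgeR FDR = 7.43e-05), which was 0.98 without the second etoposide library. The groups were separate in each of these lines. NB4, with the lowest basal level, rose from 7.52, 9.50 and 8.42 CPM to 12.9, 18.6 and 19.3 CPM, a change of 1.00 ± 0.159 just under the 2-fold threshold (0.998 unrounded). The remaining changes were between 0.52 (THP1) and 0.81 (MONOMAC6 and OCIAML3), apart from NOMO1. There the libraries moved from 241, 251 and 284 CPM to 294, 333 and 294 CPM, a change of 0.25 ± 0.0893 (edgeR FDR = 0.035) that no longer passed when any of 4 single libraries was left out, nor with RLE scaling (edgeR FDR = 0.068), nor with replicate numbers as a block (edgeR FDR = 0.0885). The THP1 change did not pass without the first untreated library.

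HLA-C rose in 8 of 10 lines, above 2-fold in F36P and MOLM13. In F36P the libraries were at 3.78, 3.54 and 3.17 CPM untreated and at 8.16, 6.20 and 15.5 CPM after etoposide (log2 fold change 1.51 ± 0.314, edgeR FDR = 0.00199). In MOLM13 they were at 27.6, 24.9 and 23.3 CPM and at 57.6, 66.2 and 65.3 CPM (1.32 ± 0.0908, edgeR FDR = 2.87e-06). OCIAML3 followed at 0.99 ± 0.144, from 10.5, 11.7 and 12.7 CPM to 19.5, 21.9 and 27.9 CPM. In the remaining lines with a rise the change was 0.41 to 0.66, and those of HL60, KASUMI1 and MV411 were lost on leaving out certain single libraries. THP1 (0.24, edgeR FDR = 0.324) and NOMO1 (0.03, edgeR FDR = 0.814) did not pass. NOMO1, where HLA-C was at 188 to 214 CPM untreated, held 191 to 207 CPM after etoposide.

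HLA-E rose in 5 lines and by less, from 0.22 in MONOMAC6 to 0.75 in F36P, with no change above 2-fold. In MV411 its libraries moved from 24.0, 25.5 and 23.9 CPM to 32.2, 36 and 35.9 CPM (log2 fold change 0.51 ± 0.0781, edgeR FDR = 8.09e-06). The libraries of NOMO1 and OCIAML3, the lines with negative values, gave -0.09 and -0.13 and did not pass. HLA-F passed the filter in 4 lines. It rose above 2-fold in MONOMAC6, from 2.96, 4.03 and 3.14 CPM to 8.65, 10.5 and 9.22 CPM (1.48 ± 0.136, edgeR FDR = 2e-06), and under 2-fold in MV411 (0.74) and OCIAML3 (0.83). These last 2 rises were lost on leaving out single libraries, in MV411 the second untreated library and in OCIAML3 any of 5. In NOMO1, its highest basal line, HLA-F changed by 0.16 (edgeR FDR = 0.384). F36P fell outside the filter with 6 untreated and 80 etoposide reads, and KASUMI1 held 0 reads in both groups.

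B2M rose in 6 lines, each time under 2-fold: OCIAML3, F36P, MOLM13, NOMO1, MV411 and MONOMAC6, with log2 fold changes of 0.66 down to 0.35. In OCIAML3, its lowest basal line, the libraries moved from 122, 135 and 125 CPM to 199, 187 and 219 CPM (edgeR FDR = 0.000331). In NOMO1 they moved from 696, 645 and 621 CPM to 801, 1020 and 961 CPM (0.50 ± 0.0969, edgeR FDR = 0.000936). NOMO1 was thus a line in which B2M rose while HLA-C, HLA-E and TAP1 did not pass. KASUMI1 showed the reverse order, with HLA-B and NLRC5 above 2-fold and B2M at -0.06 (edgeR FDR = 0.501), where the sign of B2M turned under scaling by library size alone.

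**Figure D4:**
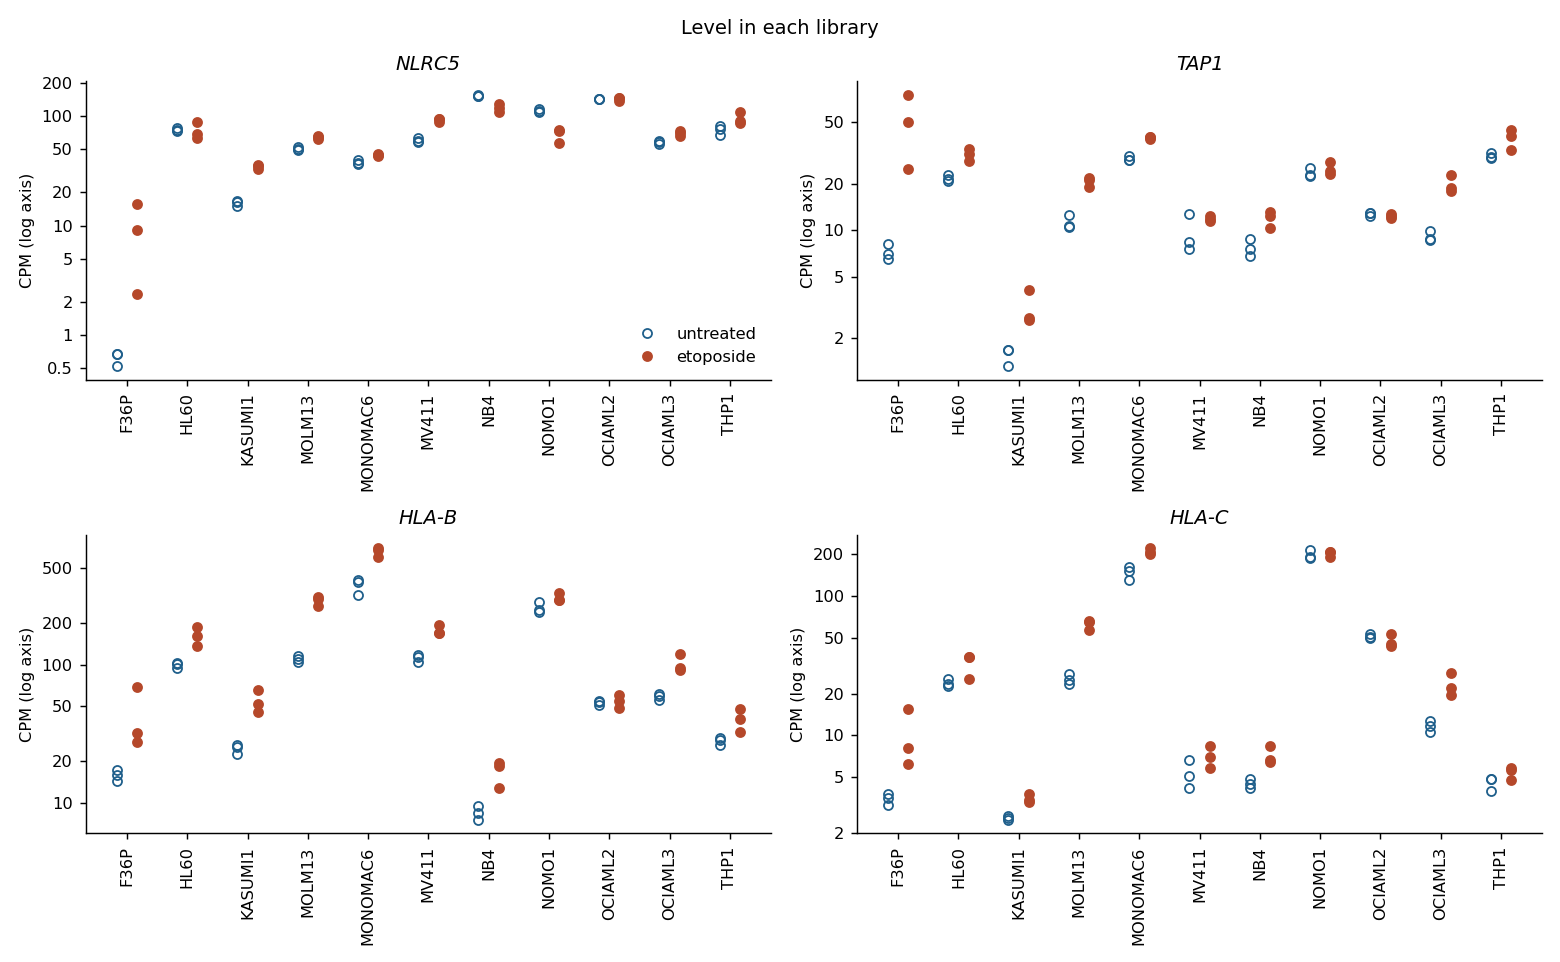
TMM-normalized CPM of NLRC5, TAP1, HLA-B and HLA-C in each untreated and etoposide library, by cell line, on log axes. Each point is a library, and the etoposide libraries of F36P spread widely for TAP1 (24.8 to 75.5 CPM) and NLRC5 (2.37 to 15.7 CPM) while its untreated libraries reach at most 8.12 and 0.677 CPM.

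TAP1 rose in 9 of 10 lines, above 2-fold in F36P, OCIAML3 and KASUMI1. In F36P the untreated libraries were at 7.05, 8.12 and 6.51 CPM and the etoposide libraries at 50.2, 24.8 and 75.5 CPM, a 6.95-fold rise (log2 fold change 2.80 ± 0.345, edgeR FDR = 7.8e-05). In OCIAML3 TAP1 went from 9.93, 8.84 and 8.66 CPM to 18.8, 17.9 and 22.7 CPM, a 2.17-fold rise (edgeR FDR = 0.000194). In KASUMI1, the lowest basal line, it went from 1.68, 1.68 and 1.32 CPM to 2.62, 4.10 and 2.71 CPM (1.00 ± 0.233, edgeR FDR = 0.0043). That change fell under 2-fold in 6 of the alternatives, to 0.77 without the second etoposide library and 0.90 without the third untreated library. MOLM13 (0.88), NB4 (0.63), HL60 (0.51) and MONOMAC6 (0.46) rose under 2-fold, as did THP1 (0.38) and MV411 (0.32), both of which lost significance on leaving out certain single libraries. NOMO1 was the exception, from 22.8, 25.2 and 22.4 CPM to 27.7, 24.2 and 23.3 CPM (0.09, edgeR FDR = 0.479). TAP2, its partner in the transporter, could be tested in MOLM13 alone, at -0.43 (edgeR FDR = 0.378).

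TAPBP moved in both directions. It rose in MV411 (log2 fold change 0.37, edgeR FDR = 0.0115) and MOLM13 (0.34, edgeR FDR = 0.045) and fell in NB4 and NOMO1. In NB4 the libraries moved from 6.91, 7.59 and 8.42 CPM to 5.18, 4.81 and 6.75 CPM, a change of -0.45 ± 0.161 (edgeR FDR = 0.0246). In NOMO1 they moved from 12.9, 14.0 and 12.7 CPM to 11.9, 9.86 and 9.15 CPM (-0.36 ± 0.125, edgeR FDR = 0.029). All 4 of these calls were lost on leaving out at least 1 single library. HLA-B and TAP1 rose in NB4 in the same libraries.

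NLRC5 showed the widest spread of responses. In F36P, where it was barely present, the libraries went from 0.677, 0.522 and 0.668 CPM to 9.06, 2.37 and 15.7 CPM, a 14.4-fold rise (log2 fold change 3.85 ± 0.657). Without the third etoposide library the log2 fold change was 3.19. NLRC5 held 33 untreated reads in F36P and passed the filter on low counts through the etoposide libraries. No FDR is therefore given for this change, which is among the rises counted above. In KASUMI1 NLRC5 went from 16.5, 15.2 and 16.6 CPM to 32.8, 35.2 and 35.4 CPM (1.10 ± 0.0905, edgeR FDR = 7.11e-06). MV411 rose by 0.61 and MOLM13, OCIAML3 and MONOMAC6 by 0.23 to 0.33, of which the OCIAML3 rise was lost on leaving out any of 3 single libraries and with the replicate block. NLRC5 fell in NB4 and NOMO1, lines with a high basal level. It moved in NB4 from 151, 156 and 153 CPM to 109, 127 and 119 CPM (-0.38 ± 0.0852, edgeR FDR = 0.00138) and in NOMO1 from 116, 110 and 109 CPM to 74.3, 56.5 and 72.1 CPM (-0.72 ± 0.105, edgeR FDR = 0.00012). The groups did not overlap in either. The NB4 fall did not pass with library size alone (-0.17, edgeR FDR = 0.0954). HL60 (-0.03) and THP1 (0.34) did not pass. In NB4 HLA-B and HLA-C rose while NLRC5 fell, in the same libraries.

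In OCIAML2 the members showed no change that passed. Their log2 fold changes lay between -0.23 (TAPBP) and 0.04, with a lowest FDR of 0.998, 0 of 7 at an unadjusted p below 0.05, and 0 by the exact test of edgeR and by DESeq2. Of all genes in that line 0.0221% rose. NLRC5, for example, was at 143, 142 and 143 CPM untreated and 137, 144 and 144 CPM after etoposide.

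A shared direction over lines was tested with 1 value per line, the mean log2 CPM after etoposide minus the mean untreated, in limma with the 10 lines as replicates. HLA-B rose by 0.88 ± 0.38 (SD over lines, positive in 10 of 10 lines, limma FDR = 0.000208), HLA-C by 0.67 ± 0.46 (9 of 10 lines, limma FDR = 0.00295) and B2M by 0.39 ± 0.22 (9 of 10 lines, limma FDR = 0.00165). TAP1 rose by 0.83 ± 0.73 (10 of 10 lines, limma FDR = 0.00837), and by 0.62 without F36P (limma FDR = 0.00181). HLA-E rose by 0.32 ± 0.30 (8 of 10 lines, limma FDR = 0.0175). HLA-F passed at 0.72 ± 0.85 (limma FDR = 0.0395) but not without F36P (0.52, limma FDR = 0.059), and passed in 11 of 22 alternatives. NLRC5 (0.53 ± 1.12, 7 of 10 lines, limma FDR = 0.185), TAPBP (0.12 ± 0.30, 8 of 10 lines, limma FDR = 0.379) and TAP2 did not pass. In all 6 of 9 members rose, against 21.6% of the 19974 genes tested, with a median of 0.53 for the members and 0.12 for all genes.

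Whether the response itself differed between lines was tested by the interaction of line and treatment in edgeR. It passed for 8 of the 9 members, with TAP2 the exception (edgeR FDR = 0.936), but also for 74.5% of all genes. The lowest FDR of the members was 8.76e-13 for NLRC5 and 2.93e-11 for TAP1. It was 0.00164 for B2M and 0.0043 for TAPBP, the members with narrow ranges. As a description over the 10 lines, which share libraries between genes, the changes of TAP1 and NLRC5 correlated at r = 0.91, and at 0.56 without F36P. For HLA-B with HLA-C r was 0.87 and 0.84 without F36P, and for HLA-B with TAP1 0.70 and 0.78. Among 15102 protein-coding genes, the change of NLRC5 was most alike in CIDEC (r = 0.988), SASH1 (0.982) and LILRA2 (0.979), and that of TAP1 in CUBN (0.978), KCNAB2 (0.968) and GLI3 (0.964). Without F36P these values were between 0.797 and 0.962.

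Other genes of the pathway were followed from fixed lists. Of 456 tests over the 10 lines, 173 rose (37.9%) and 83 fell (18.2%), against 27.7% and 24.4% of all gene tests. By more than 2-fold 50 rose (11%), close to the 11.1% of all gene tests. Falls of more than 2-fold numbered 5, against 3.96% of all gene tests. The plot of pathway lists shows each gene in each line in which it was tested.

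**Figure D5:**
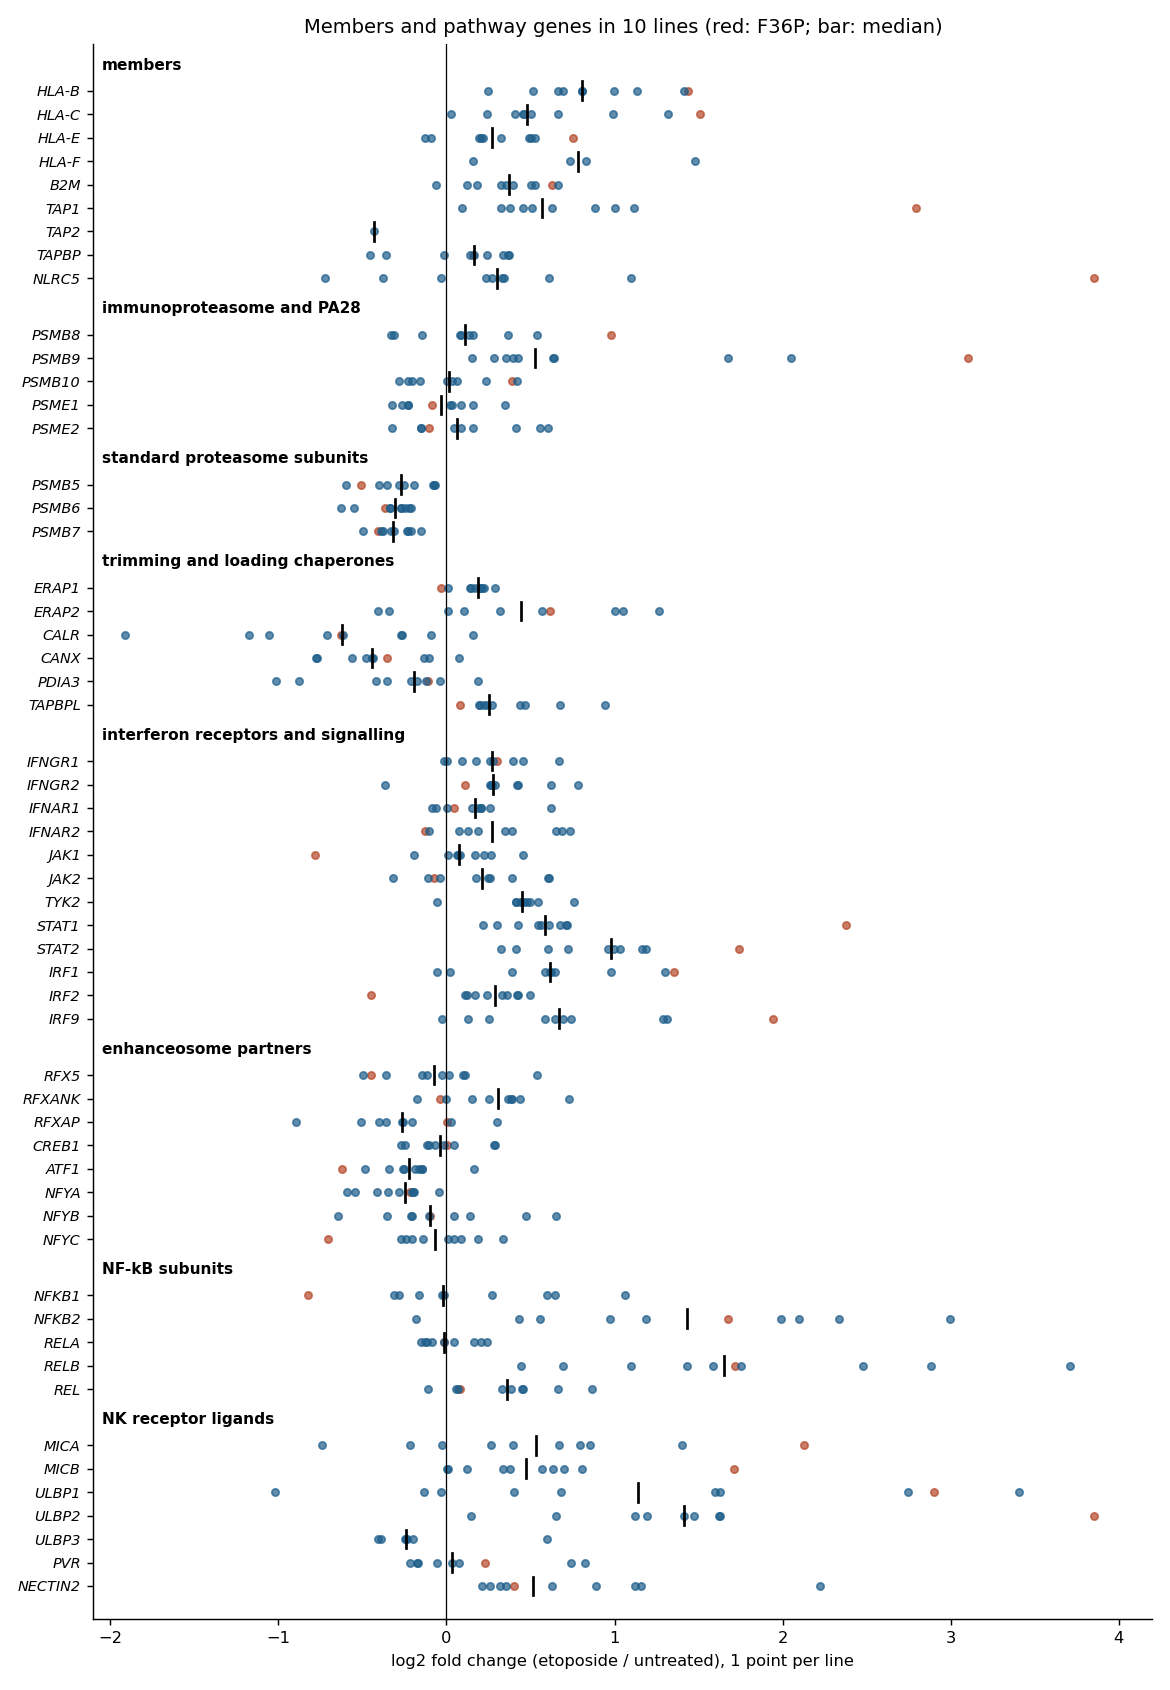
Log2 fold change after etoposide of each member and pathway gene, grouped by list, without the interferon ligands. Each point is 1 of the 10 lines in which the gene was tested, with F36P in red and a bar at the median of the gene. Standard proteasome subunits lie below 0, and interferon signalling, NF-kB subunits and NK receptor ligands lie mostly above it.

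Of the immunoproteasome and PA28 activator genes 15 of 50 tests rose (30.0%) and 10 fell (20%), shares near those of all gene tests (27.7% and 24.4%), with a median log2 fold change of 0.09. PSMB9, the neighbour of TAP1, accounted for 7 of the rises, with a mean of 0.96 ± 0.94 over lines (limma FDR = 0.0139). In F36P it went from 2.99, 2.73 and 3.06 CPM to 23.8, 20.6 and 31.2 CPM (log2 fold change 3.10 ± 0.193, edgeR FDR = 2.36e-06). PSMB8 (0.18), PSMB10 (0.04), PSME1 (-0.02) and PSME2 (0.14) had means that did not pass. The standard catalytic subunits, which the immunoproteasome subunits replace, fell in 23 of 30 tests (76.7%, against 24.4% of all gene tests). Their log2 fold changes were negative in all 30. PSMB5 had a mean of -0.25 ± 0.18 (limma FDR = 0.00903), PSMB6 of -0.32 ± 0.13 (limma FDR = 0.00139) and PSMB7 of -0.29 ± 0.10 (limma FDR = 0.0012), each negative in 10 of 10 lines.

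Among genes of peptide trimming and chaperones of loading 13 of 60 tests rose (21.7%) and 21 fell (35.0%), against 27.7% and 24.4% of all gene tests. The median log2 fold change was -0.01. CALR, the chaperone calreticulin of the loading complex, had a mean of -0.63 ± 0.60 (limma FDR = 0.0112) and fell in 7 lines. In NB4 it went from 5350, 5650 and 4900 CPM to 1380, 1470 and 1370 CPM (log2 fold change -1.91 ± 0.0864, edgeR FDR = 4.23e-10). The fellow lectin chaperone CANX fell in 7 lines as well (mean -0.37 ± 0.27, limma FDR = 0.00439). TAPBPL, a relative of tapasin, rose on the mean by 0.39 ± 0.27 (10 of 10 lines, limma FDR = 0.00727). ERAP2, an aminopeptidase that trims peptides, had a mean of 0.44 ± 0.59 that did not pass (limma FDR = 0.052).

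Interferon receptors and signalling genes rose in 75 of 120 tests (62.5%, against 27.7% of all gene tests), with a median of 0.38. They fell in 2 (1.67%, against 24.4%), and 10 rose above 2-fold (8.33%, against 11.1%). In NB4 alone, all same-numbered libraries deviated together at a correlation above 0.1. With the replicate block, falls of JAK1 (-0.19, edgeR FDR = 0.0163) and IFNGR2 (-0.34, edgeR FDR = 0.00828) and a rise of JAK2 (0.25, edgeR FDR = 0.0459) were added there. STAT2 rose in all 10 lines (mean 0.94 ± 0.41, limma FDR = 0.000221), from 0.33 in HL60 to 1.74 in F36P. IRF9, its partner in the ISRE-binding complex, had a mean of 0.76 ± 0.62 (9 of 10 lines, limma FDR = 0.00767) and rose in 6 lines. JAK1 (0.07) and IFNAR1 (0.18) had the smallest means and did not pass. In F36P STAT2 went from 56.3, 47.9 and 49.7 CPM to 178, 108 and 229 CPM (log2 fold change 1.74 ± 0.233, edgeR FDR = 0.000128), and the second etoposide library was lowest here as it was for TAP1 and NLRC5. CDKN1A in the same libraries was at 132, 137 and 176 CPM.

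Of the interferon genes themselves, only IFNB1, IFNG and IFNL1 were followed, and these were near 0 in most lines. IFNB1 in F36P had 3 reads untreated and 79 after etoposide, with library values of 1.37, 0.605 and 1.84 CPM after etoposide. It passed the filter on low counts in that line alone and through the etoposide libraries, so no test is given. Its rise in F36P is nevertheless among the 173 rises and the 50 rises above 2-fold of the pathway lists counted above. IFNL1 held 0 reads untreated and 150 after etoposide in F36P, at 2.74, 0.454 and 4.01 CPM, and missed the filter on low counts. In no other line did IFNL1 exceed 1 read in a group. After etoposide IFNB1 had 28 reads in THP1, 17 in MONOMAC6 and 13 in NB4, against 8, 2 and 2 untreated, and at most 9 elsewhere. IFNG held 5 reads in F36P and 3 in NOMO1 after etoposide and at most 1 in any other group. The part of these transcripts in the response of the members in F36P was not tested.

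The partners with which NLRC5 acts had log2 fold changes between -0.89 (RFXAP in MOLM13) and 0.73 (RFXANK in NB4). Of these RFX, CREB/ATF and NF-Y genes 11 of 80 tests rose (13.8%) and 23 fell (28.8%), against 27.7% and 24.4% of all gene tests. The median was -0.14. NFYA, a subunit of the CCAAT-binding factor, had the largest mean fall (-0.28 ± 0.16, limma FDR = 0.00423), and RFXAP, a subunit of the RFX complex, the next (-0.23, limma FDR = 0.0988, not passed). RFXANK rose on the mean by 0.27 ± 0.28 (limma FDR = 0.0266), and CREB1 was at 0.00 (limma FDR = 0.966). NF-kB subunits rose in 26 of 50 tests (52.0%, against 27.7% of all gene tests) and in 15 above 2-fold (30.0%, against 11.1%). RELB (mean 1.78 ± 0.98, limma FDR = 0.000543) and NFKB2 (1.42 ± 0.96, limma FDR = 0.00165), which form the noncanonical complex, rose in 9 lines each, and above 2-fold in 8 and 6 lines. REL had a mean of 0.34 ± 0.28 (limma FDR = 0.0151) and rose in 4 lines. NFKB1 (mean 0.12) and RELA (0.04) did not pass on the mean, with rises in 3 lines and in 1. RELB and NFKB2 were highest in HL60, where RELB went from 3.08, 5.42 and 5.10 CPM to 43.4, 47.4 and 87.0 CPM, and lowest in OCIAML3, at log2 fold changes of 0.44 and -0.18.

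Ligands of activating NK cell receptors, which are read together with class I by NK cells, rose in 32 of 65 tests (49.2%, against 27.7% of all gene tests). Rises above 2-fold numbered 18 (27.7%, against 11.1%), and there was 1 fall (1.54%, against 24.4%). ULBP2, a ligand of NKG2D, had a mean of 1.32 ± 0.88 (10 of 10 lines, limma FDR = 0.00219) and rose above 2-fold in 7 of the 9 lines in which it was tested. ULBP1, another NKG2D ligand, had a mean of 1.19 ± 1.42 (limma FDR = 0.0315) and moved both ways. In NB4 it went from 0.254, 0.164 and 0.573 CPM to 3.31, 3.47 and 3.76 CPM (log2 fold change 3.41 ± 0.314). ULBP1 passed the filter on low counts in NB4 through the etoposide libraries, so no FDR is given there. This change is among the 32 rises and the 18 rises above 2-fold counted above. In MOLM13 it went from 1.18, 1.14 and 1.51 CPM to 0.774, 0.854 and 0.256 CPM (-1.02 ± 0.362, edgeR FDR = 0.0346). ULBP3 (0.02) and PVR (0.24) had the smallest means and did not pass.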

How the data were processed

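RNA was sequenced on an Illumina HiSeq 2000 from TruSeq stranded mRNA libraries. According to the study's methods and the submitters' processing notes, reads were checked with FastQC 0.11.5 and mapped with STAR 2.5.3a to GRCh38.p7 with gencode 25, counting reads per gene. The authors deposited raw counts per gene and library, with 58037 identifiers, of which 45 copies on the Y pseudoautosomal region (0 reads) were left out. Names, positions and lengths were taken from gencode 44 (56948 of 57992 identifiers named). Which STAR count column was deposited is not given in the sources used here. Columns of other samples numbered 0.

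Each line was fitted in edgeR 4.0.16 (R 4.3.3) with filterByExpr (minimum count 10), TMM and the quasi-likelihood test. P-values were adjusted by Benjamini and Hochberg over all genes tested. The SE of a log2 fold change is its size divided by the root of the F statistic. Mean changes over lines were tested in limma 3.58.1 with a prior count of 2. Alternatives used RLE or library size alone, other filters, DESeq2 1.42.0, the exact test of edgeR, a replicate block, a single fit of 60 libraries and each library or line left out. The scripts were tested on simulated data. Figures were drawn with matplotlib 3.10.9.

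Members, by a rule on symbols, and gene lists were chosen with earlier results of these data known. All members are named. Some genes of the lists are not reported here by name. Of each list the 2 genes with the largest and the 2 with the smallest mean change among those tested in at least 5 lines are named, and every gene of lists of 5 or fewer. Where no read was counted, up to 3 reads remain possible, which is 0.0426 to 0.0528 CPM per group, covering counting error only. No replicates agreed within sampling noise (lowest chi-square per degree of freedom 2.05).

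Libraries carry replicate numbers 1 to 3 in each group. Same-numbered libraries deviated together, with every correlation above 0.1, in NB4 alone (0.265, 0.22 and 0.152). There the replicate block changed no call of a member, and 5 pathway genes gained a call by adjusted p (JAK1, JAK2, IFNGR2, PSMB6 and PVR).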

Additional observations from a re-analysis of the deposited data

Results flagged for a closer look

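The etoposide response differed between the 10 lines by the interaction test of edgeR for 8 members, and 74.5% of all genes passed the same test. The highest minus the lowest log2 change, on the scale of mean log2 CPM with a prior count of 2, was 4.11 for NLRC5, from -0.76 in NOMO1 to 3.35 in F36P (edgeR adjusted p = 8.76e-13). TAP1 spanned 2.63, from 0.06 in NOMO1 to 2.69 in F36P (edgeR adjusted p = 2.93e-11), and HLA-F 2.70, from -0.22 in NB4 to 2.49 in F36P (edgeR adjusted p = 0.000444), although HLA-F held 1 read in the NB4 libraries. HLA-C spanned 1.42, up to the same value in F36P from no change in NOMO1 (edgeR adjusted p = 7.93e-07), and HLA-B 1.26, from 0.22 in NOMO1 to 1.48 in MOLM13 (edgeR adjusted p = 7e-05). HLA-E spanned 0.91, from -0.14 in OCIAML3 to 0.77 in F36P (edgeR adjusted p = 2.13e-05). TAPBP spanned 0.81, from -0.41 in NB4 to 0.40 in MOLM13 (edgeR adjusted p = 0.0043), and B2M 0.67, from -0.02 in KASUMI1 to 0.65 in OCIAML3 (edgeR adjusted p = 0.00164). With F36P left out, 8 members passed the interaction test as well.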

How the results depend on the processing

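Of 53 changes of a member in a line that passed the adjusted p, 32 passed in every alternative that tested them, 21 did not pass, or fell under 2-fold, in at least 1, and 0 changed direction. A single fit of 60 libraries lost 12 of them and library size alone 4. Falls of members by adjusted p numbered 4, but 1 with library size alone, 2 in the single fit of 60 libraries and 2 to 4 on leaving out a replicate in every line. The fall of NLRC5 in NOMO1 passed in all 14 alternatives, that of NLRC5 in NB4 in 12, and those of TAPBP in NB4 and NOMO1 in 8 each. Rises above 2-fold numbered 11, and 7 without line F36P, an alternative chosen after seeing the data. Library size alone raised the median log2 fold change of all genes in F36P from 0.086 to 0.335. The sign of 4 values that did not pass turned under another scaling (HLA-C in NOMO1, B2M in KASUMI1, TAPBP in THP1 and NLRC5 in HL60). The cause of these shifts was not tested. Basal CPM moved by a factor of 0.939 to 1.10 over the scalings.

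With the replicate number as a block, 10 rises above 2-fold, 46 rises and 4 falls by adjusted p, and 55 pathway calls were found (11, 49, 4 and 55 without it). In lines other than NB4 not every correlation of same-numbered libraries was above 0.1, and whether the numbers pair the libraries there is not settled. Every library was closest to its own number in 3 lines, NB4, MV411 and OCIAML2. With the block HLA-B in NOMO1, HLA-F and NLRC5 in OCIAML3 and TAP1 in THP1 no longer passed, TAP1 in KASUMI1 passed (adjusted p = 0.00373) just under 2-fold, and TAPBP in MONOMAC6 was gained. It left 8 members differing in response and 8 in basal level. HLA-F and TAP2 were under 10 reads per library in most lines, which limits their precision.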
